A study of Mus musculus with 24 samples.

Results

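The comparison described here asks whether a high-fat diet moved liver transcripts by the same factor in mice of the 129S1/SvImJ and C57BL/6J strains. It used all 24 of the 24 RNA-seq libraries of the study, each from the liver of 1 mouse: 5 from 129S1/SvImJ on chow, 6 from 129S1/SvImJ on high-fat diet, 6 from C57BL/6J on chow and 7 from C57BL/6J on high-fat diet. Both are inbred strains with no transgene or treatment in the labels, which give neither age, sex, diet composition nor feeding time. The study as a whole concerns the binding of the transcription factor TCF7L2 in liver.

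For each of 14533 genes the diet effect, the log2 ratio of high-fat to chow, was estimated in each strain, and the interaction is the difference between the strains' diet effects, with C57BL/6J subtracted from 129S1/SvImJ. A positive interaction therefore means a larger rise, or a smaller fall, in 129S1/SvImJ. A gene was called when its p in edgeR's quasi-likelihood test, adjusted over all genes by the Benjamini-Hochberg method, was under 0.05. Levels are given in CPM, a gene's count divided by the library total and scaled to a common size. Errors of log2 values are approximate standard errors (SE), the absolute log2 value divided by the square root of the F statistic of its test.

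The liver makes cholesterol and fatty acids when the diet does not supply them. Transcription factors of the SREBP family switch the cholesterol genes on, and sterols that enter the cell keep these factors inactive. Insulin and dietary carbohydrate drive the fatty acid genes. Surplus fat is stored in lipid droplets, and inbred strains are known to differ in how readily their livers store it on a rich diet. Liver also secretes most plasma proteins, including complement and coagulation factors.

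The libraries held 7607255 to 9184270 counts in 129S1/SvImJ on chow, 6707013 to 13035534 in 129S1/SvImJ on high-fat diet, 10162138 to 12826048 in C57BL/6J on chow and 8294723 to 13124881 in C57BL/6J on high-fat diet. The hepatocyte transcripts Alb, Apoa1, Ttr and Hnf4a were abundant in every group, with lowest Alb levels of 34720 CPM and lowest Hnf4a levels of 455 CPM. The noncoding RNA 7SK (Rn7sk) lay between 2097 and 2765 CPM in 10 libraries and between 3218 and 7258 CPM in the other 14, and each group had libraries at both levels. Of the fat-cell transcripts, Adipoq reached 1.23 CPM, Lep 3.28 CPM and Plin1 1.56 CPM in replicate 5 of C57BL/6J on high-fat diet, and no other library of any group exceeded 0.866 CPM in Adipoq. In whole liver, fewer cells of a type and less RNA per cell cannot be told apart.

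The interaction was called for 43 genes, 0.296% of those tested. Of these, 25 (0.172%) were higher and 18 (0.124%) lower, by 0.37 to 3.26 log2 units in absolute size with a median of 0.73. Under total-count scaling, which moved the median of all genes from −0.01 to −0.09, the split was 17 higher and 58 lower. By unadjusted p under 0.05 the test gave 2077 genes (14.3%), 1025 higher and 1052 lower, and an adjusted p under 0.1 gave 239 genes (1.64%) and one under 0.2 gave 842 (5.79%). Over all genes the median interaction was −0.01 and its median SE 0.18. The diet was called for 1514 genes (10.4%) in 129S1/SvImJ, of which 786 (5.41%) rose and 728 (5.01%) fell. In C57BL/6J it was called for 2159 genes (14.9%), of which 1113 (7.66%) rose and 1046 (7.2%) fell.

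Most strain-restricted diet calls did not come with a called interaction. The diet was called in both strains for 588 genes, which is 38.8% of the calls in 129S1/SvImJ and 27.2% of those in C57BL/6J, and 585 of them went the same way. It was called in 1 strain only for 2497 genes, of which 35 (1.4%) were called for the interaction and 44% had an unadjusted interaction p under 0.05. The diet effects of the strains had a Pearson r of 0.595 across the 3085 genes called for diet in either strain, which these same effects chose. Across all genes tested it was 0.439. Both values are across genes, which are not independent replicates.

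**Figure D1:**
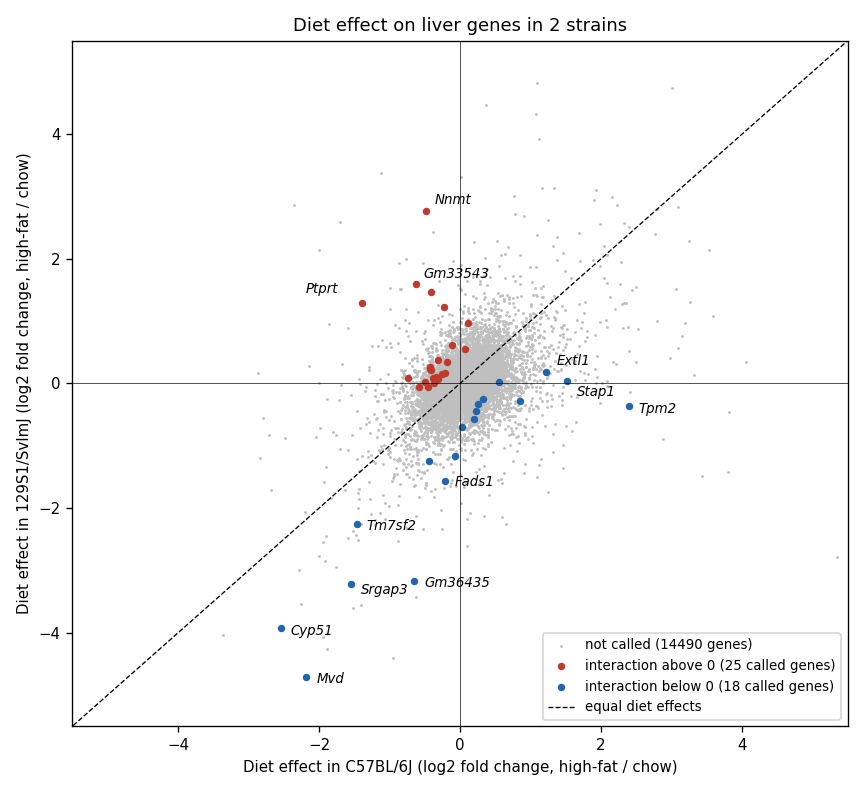
Each point is 1 gene, with its diet effect in C57BL/6J on the x axis and in 129S1/SvImJ on the y axis, both as log2 fold changes of high-fat over chow. Red (25) and blue (18) points are the genes called for the interaction, which lie above and below the dashed line of equal effects. The 3 genes outside the axes were not called.

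The 43 called genes fell into 4 diet patterns. In 22 of them the diet was called in C57BL/6J only, where 16 fell and 6 rose. In 13 it was called in 129S1/SvImJ only, where 7 rose and 6 fell. In 5 genes (Cyp51, Tm7sf2, Mvd, Srgap3 and Gstm6) the diet lowered the transcript in both strains and more so in 129S1/SvImJ. In 3 genes, among them Gm33543 and Ptpn23, the diet was called in both strains with opposite signs. Over all genes tested, the diet was called in C57BL/6J only for 1571, where 770 fell and 801 rose. It was called in 129S1/SvImJ only for 926, where 473 rose and 453 fell. Both strains were called for 585 in the same direction and for 3 in opposite directions. Read as strain differences, 21 of the 43 were called between strains on the high-fat diet only, 8 on chow only and 14 on both diets, beside 19%, 6.99% and 18% of all genes tested. Counting each diet by itself, the strains were called apart on high-fat diet for 37% and on chow for 25% of all genes.

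Cholesterol synthesis was the metabolic list with the most genes called lower. Promoter sequence is shown for its 3 called members, from 100 bases before to 20 bases after the RefSeq start on GRCm38.p6, because CCAAT boxes are known elements of sterol-responsive promoters. Capitals mark CCAAT on either strand (CCAAT or ATTGG).
Cyp51 promoter, chr5:4104678-4104797, minus strand: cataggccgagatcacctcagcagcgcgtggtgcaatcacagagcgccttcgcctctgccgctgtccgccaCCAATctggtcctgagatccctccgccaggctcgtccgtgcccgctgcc
Tm7sf2 promoter, chr19:6067831-6067950, minus strand: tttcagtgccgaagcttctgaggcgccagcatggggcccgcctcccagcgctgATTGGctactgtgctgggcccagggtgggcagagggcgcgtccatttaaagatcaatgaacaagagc
Mvd promoter, chr8:122443403-122443522, minus strand: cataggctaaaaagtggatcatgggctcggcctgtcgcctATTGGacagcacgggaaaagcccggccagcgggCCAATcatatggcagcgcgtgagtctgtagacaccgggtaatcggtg
The letters were present in 14 of the 20 such windows (70%) of the 17 list genes that matched the RefSeq table, and in 20.8% of the windows of all 32851 promoters. A match describes letters only and is not a measured binding site.

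Cyp51 encodes the sterol demethylase that acts on lanosterol. In 129S1/SvImJ its level was 202, 181, 195, 178 and 229 CPM in the 5 chow libraries, and 11.7, 12.4 and 15.5 CPM as the lowest, median and highest high-fat libraries. In C57BL/6J the lowest, median and highest were 200.5, 241 and 338 CPM on chow and 30.2, 38.7 and 63.1 CPM on high-fat diet. The diet groups did not overlap in either strain, and every high-fat library of 129S1/SvImJ lay below every one of C57BL/6J. The fall was 3.93 log2 units in 129S1/SvImJ against 2.54 in C57BL/6J, an interaction of −1.38 (SE 0.23, edgeR adjusted p = 0.0182). In CPM rather than in ratios the difference between the falls had the other sign, 26.7 CPM (adjusted p = 0.643, limma).

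Mvd encodes mevalonate diphosphate decarboxylase, an early enzyme of the pathway. The 129S1/SvImJ chow libraries stood at 24.6, 22.4, 16.1, 13.5 and 38.9 CPM, and the high-fat libraries between 0.58 and 1.25 CPM with a median of 0.91. In C57BL/6J the range was 9.47 to 29.0 CPM (median 15.9) on chow and 1.62 to 6.64 CPM (median 3.05) on high-fat diet. Here too the diet groups were apart in both strains. Its interaction was −2.52 (SE 0.54, edgeR adjusted p = 0.0431). Tm7sf2, a sterol reductase, went from a median of 155 CPM on chow to 33.0 CPM on high-fat diet in 129S1/SvImJ and from 144 to 49.2 CPM in C57BL/6J. Its interaction was −0.78 (SE 0.15, edgeR adjusted p = 0.0298).

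Of the 25 genes tested in the list of cholesterol synthesis and uptake, 3 were called lower and none higher, and by unadjusted p under 0.05 18 were lower and 1 was higher, against 7.24% and 7.05% of all genes. The median interaction of the list was −0.69, beside −0.01 over all genes, and its median diet effects were −1.995 in 129S1/SvImJ and −1.445 in C57BL/6J. Squalene epoxidase, Sqle, had a mean of 0.663 CPM in 129S1/SvImJ on high-fat diet and 6.79 CPM in C57BL/6J on high-fat diet, from 120 and 116 CPM on chow, and its interaction of −3.29 (SE 0.82) had an edgeR adjusted p of 0.0773. The farnesyl diphosphate synthase gene Fdps (−2.37, adjusted p = 0.0635) and the sterol dehydrogenase gene Nsdhl (−1.28, adjusted p = 0.056) were also short of the threshold in edgeR. The sterol reductase gene Hsd17b7 went the other way: the diet lowered it by 1.06 in 129S1/SvImJ and by 1.70 in C57BL/6J, an interaction of 0.64 (edgeR adjusted p = 0.11).

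Among the genes of fatty acid synthesis and desaturation, Fads1 carried the call. It encodes a desaturase that makes polyunsaturated fatty acids. Its 129S1/SvImJ chow libraries were at 674, 638, 540, 575 and 716 CPM, and the 6 high-fat libraries lay between 205 and 227 CPM. In C57BL/6J the levels were 531 to 843 CPM (median 678) on chow and 419 to 830 CPM (median 516) on high-fat diet, with overlap. The diet lowered Fads1 by 1.56 in 129S1/SvImJ, while the effect in C57BL/6J was −0.22 (edgeR adjusted p = 0.326), and the interaction was −1.34 (SE 0.21, edgeR adjusted p = 0.0082). Fads1 was called in each of the 24 fits that left out 1 library.

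The other 21 genes of that list gave no call. By unadjusted p under 0.05, 9 of the 22 were lower and none higher, beside 7.24% and 7.05% of all genes, and the list median was −0.49. The elongase gene Elovl5 averaged 758 CPM on chow and 446 CPM on high-fat diet in 129S1/SvImJ and 761 and 1264 CPM in C57BL/6J (interaction −1.50, edgeR adjusted p = 0.056). Fatty acid synthase, Fasn, averaged 1072 and 358 CPM in 129S1/SvImJ and 1372 and 1444 CPM in C57BL/6J (interaction −1.65, edgeR adjusted p = 0.0895). The desaturase gene Scd1 rose in both strains, with medians of 5611 and 12750 CPM in 129S1/SvImJ and 16090 and 40040 CPM in C57BL/6J, and its interaction was −0.29 (SE 0.37, edgeR adjusted p = 0.777). Srebf1, which encodes a driver of fatty acid genes, had median levels of 282 and 503 CPM in 129S1/SvImJ and 286 and 744 CPM in C57BL/6J (interaction −0.73, edgeR adjusted p = 0.197).

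In triglyceride assembly 1 of 15 genes was called, beside 0.296% of all genes. The called gene was Gpat4, an acyltransferase that starts glycerolipid synthesis. In 129S1/SvImJ it was at 120, 124, 218, 174 and 169 CPM on chow and at 278 to 379 CPM (median 297) on high-fat diet, with no overlap. In C57BL/6J it was at 237 to 313 CPM on chow and 243 to 383 CPM on high-fat diet, so the 129S1/SvImJ high-fat libraries lay in the range of C57BL/6J on the same diet. The interaction was 0.84 (SE 0.18, edgeR adjusted p = 0.0431). Gpat3, its paralog, averaged 27.4 and 37.0 CPM in 129S1/SvImJ and 4.56 and 17.2 CPM in C57BL/6J, with an interaction of −1.51 (edgeR adjusted p = 0.056). By unadjusted p under 0.05, Gpat4 and Apob were higher and Gpat3 and Tm6sf2 lower, beside 7.05% and 7.24% of all genes.

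None of the 19 lipid droplet genes or the 17 genes of fatty acid uptake and PPARG targets was called in edgeR. By unadjusted p under 0.05, 3 droplet genes were higher and 5 lower, and 2 uptake genes were higher and 8 lower, beside 7.05% and 7.24% of all genes. The list medians were −0.32 and −0.47. Cidec, a lipid droplet fusion protein, stood at 0.92 to 1.89 CPM in 129S1/SvImJ on chow and 1.31 to 3.69 CPM on high-fat diet, and at 3.33 to 7.17 CPM and 14.7 to 208 CPM in C57BL/6J. The diet groups overlapped in 129S1/SvImJ and not in C57BL/6J. Its interaction of −3.72 (SE 1.15) had an adjusted p of 0.134 in edgeR and 0.000348 in DESeq2, and the adjusted p over all fits without 1 library ran from 0.0596 to 0.264 in edgeR.

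The fatty acid transporter gene Cd36 was at 20.1 to 27.9 CPM and 38.7 to 52.0 CPM in 129S1/SvImJ and at 38.2 to 60.9 CPM and 83.0 to 373 CPM in C57BL/6J, chow before high-fat. Its diet groups were apart in both strains (interaction −1.17, SE 0.39, edgeR adjusted p = 0.165, DESeq2 adjusted p = 0.0428). The adipsin gene Cfd had a median of 166 CPM in C57BL/6J on high-fat diet and 0.10, 0.04 and 2.66 CPM in 129S1/SvImJ on chow, 129S1/SvImJ on high-fat diet and C57BL/6J on chow. Its fitted interaction of −8.13 (edgeR adjusted p = 0.1251) was −5.32 without replicate 1 of 129S1/SvImJ on chow, which held 3.21 CPM and the highest chow Adipoq, 0.866 CPM. The nuclear receptor gene Pparg had medians of 3.15 and 4.21 CPM in 129S1/SvImJ and 10.6 and 25.1 CPM in C57BL/6J (interaction −1.11, edgeR adjusted p = 0.315). Without replicate 5 of C57BL/6J on high-fat diet, the library with fat-cell transcripts, the interactions were −3.38 for Cidec, −0.97 for Cd36 and −8.30 for Cfd. Of 16 adipocyte markers 9 were tested, and Cidea passed the low-count filter only through C57BL/6J on high-fat diet. None of the 9 was called, and 5 were lower by unadjusted p under 0.05, beside 7.24% of all genes. These were Plin4, Cfd, Cidec, Lipe and Fabp4, and all but Cfd are also in the droplet or uptake list. The summed level of the whole adipocyte list, tested or not, includes genes that liver itself expresses, such as Pck1 and Car3. That sum was 4403 to 6230 CPM and 4513 to 6978 CPM in 129S1/SvImJ and 5238 to 6422 CPM and 3695 to 6976 CPM in C57BL/6J, chow before high-fat. The defining markers Adipoq, Lep, Plin1 and Retn were not among the genes tested and had a median of 0 CPM in both high-fat groups. In 129S1/SvImJ on chow the medians were 0.1047 CPM for Adipoq and 0.1124 CPM for Plin1.

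**Figure D2:**
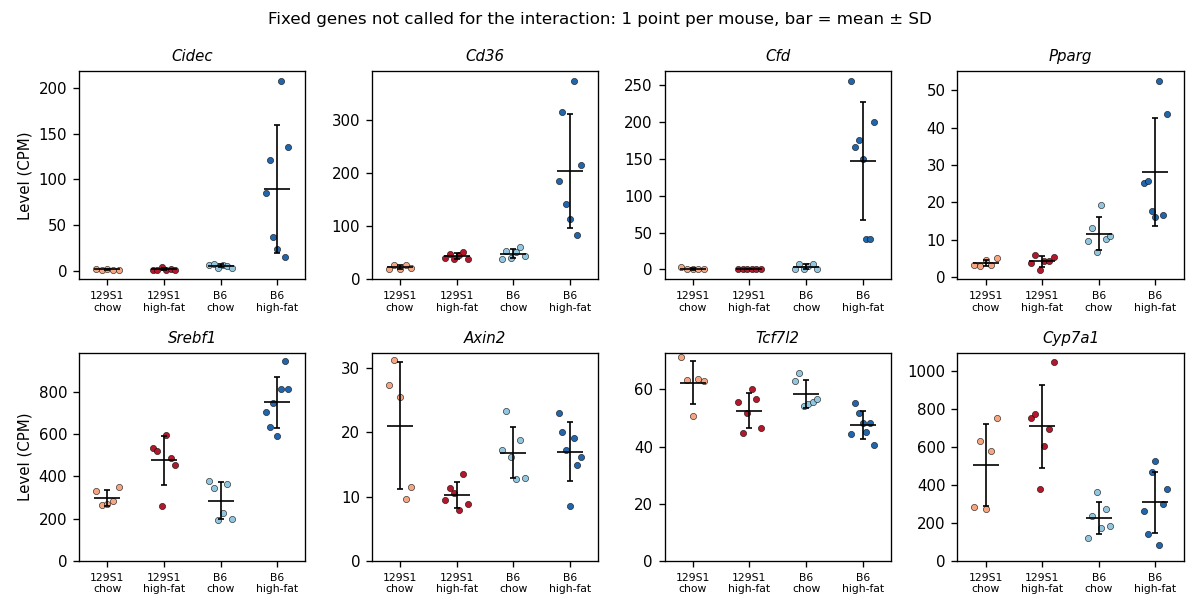
Levels in CPM of 8 genes chosen whatever their p and not called, with 1 point per mouse and bars for the mean ± SD of 5, 6, 6 and 7 mice. Cidec, Cd36 and Cfd lie highest in C57BL/6J on high-fat diet, and Cd36 rises to 373 CPM there. Tcf7l2 lies between 40.4 and 71.3 CPM in all libraries.

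Ribosomal protein genes gave 7 of the 25 genes called higher, among them Rpl7a, Rps7, Rpl12, Rpl17 and Rpl32. Messages of this class are known to begin in a run of pyrimidines through which translation is controlled. The start region is therefore shown for 3 of them, again from 100 bases before to 20 after the RefSeq start on GRCm38.p6. Capitals mark runs of 5 or more C or T that touch the 10 bases on either side of the start.
Rpl7a promoter, chr2:26910707-26910826, plus strand: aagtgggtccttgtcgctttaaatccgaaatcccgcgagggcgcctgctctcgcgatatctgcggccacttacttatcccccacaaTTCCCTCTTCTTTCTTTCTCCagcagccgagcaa
Rps7 promoter, chr12:28635934-28636053, minus strand: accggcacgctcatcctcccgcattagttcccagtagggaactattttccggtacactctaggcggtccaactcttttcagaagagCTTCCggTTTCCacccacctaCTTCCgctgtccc
Rpl12 promoter, chr2:32961612-32961731, plus strand: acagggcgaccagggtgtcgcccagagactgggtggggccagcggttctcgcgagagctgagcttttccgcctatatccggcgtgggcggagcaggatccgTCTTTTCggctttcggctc
Such a run was present in 49 of the 72 start regions (68.1%) of the 61 ribosomal genes that matched the table and in 44.9% of all 32851. It was searched on the gene's own strand only. Of the regions shown, only Rpl7a has a run that covers the RefSeq start. The Rpl12 run begins at base 2, and the Rps7 runs begin at bases -14, -7 and 8.

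Rpl12 shows the pattern. In 129S1/SvImJ its level was 90.5, 84.0, 128, 111 and 96.3 CPM on chow and 93.3 to 105 CPM (median 97.7) on high-fat diet. In C57BL/6J it was 98.9 to 121 CPM (median 108) on chow and 65.9 to 80.02 CPM (median 72.3) on high-fat diet. The C57BL/6J high-fat group thus lay below every other library, while the 129S1/SvImJ groups overlapped. The interaction was 0.53 (SE 0.11, edgeR adjusted p = 0.0431). Rpl7a had medians of 124 and 134 CPM in 129S1/SvImJ and 132 and 107 CPM in C57BL/6J (interaction 0.43, SE 0.08, edgeR adjusted p = 0.0196).

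The interactions of the 81 ribosomal protein genes tested ran from −0.45 to 0.61 with a median of 0.29, beside −0.01 over all genes, and 51 were higher by unadjusted p under 0.05 with none lower (7.05% and 7.24% of all genes). The diet effect was below 0 for 80 of them in C57BL/6J (median −0.35) and for 62 in 129S1/SvImJ (median −0.07). Of the 42 translation factor genes none was called and 16 were higher by unadjusted p with none lower (median 0.15). Rack1, a ribosome-bound scaffold, was closest to the threshold (0.42, edgeR adjusted p = 0.056).

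The number of ribosomal calls depended on single libraries, from 0 to 15 over the 24 fits without 1 library, while the number at an unadjusted p under 0.05 ran from 39 to 68. Many ribosomal genes have near-identical processed copies in the genome, so reads can be split among them. Under total-count scaling, which moved the median of all genes to −0.09, 4 were called and 33 were at an unadjusted p under 0.05.

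**Figure D3:**
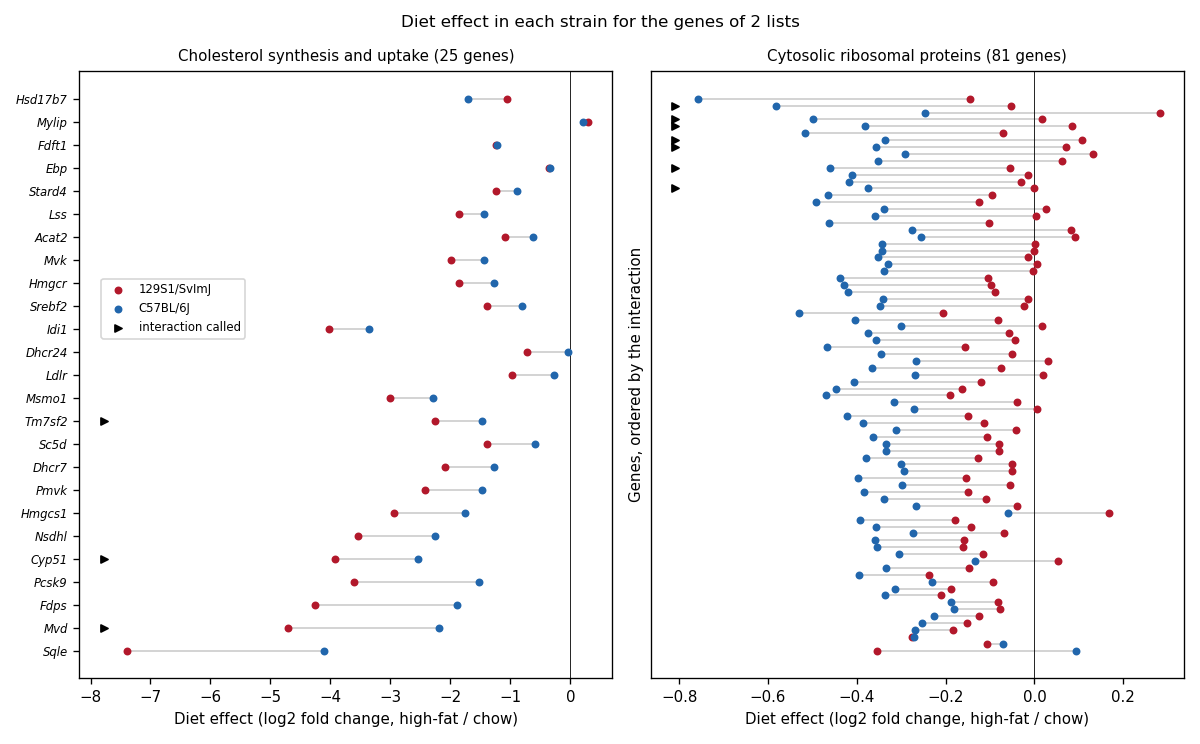
Diet effects (log2 fold change of high-fat over chow) in 129S1/SvImJ (red) and C57BL/6J (blue) for the genes of 2 lists, 1 gene per line, ordered by the interaction. Triangles mark the 3 and 7 called genes. Blue points lie to the right of red for most of the 25 cholesterol genes and to the left for most of the 81 ribosomal genes.

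Plasma protein genes leaned the same way as the ribosomal genes. In the list of serpins and complement, 1 of 50 genes was called, and by unadjusted p under 0.05 22 were higher and 2 lower (list median 0.33), where 7.05% and 7.24% of all genes were. The called gene, C1ra, encodes a protease of the first complement component. It was at 142, 145, 115, 152 and 159 CPM on chow and 151 to 176 CPM on high-fat diet in 129S1/SvImJ, and at 149 to 189 CPM and 85.8 to 151 CPM in C57BL/6J. The diet groups overlapped in both strains. Its interaction was 0.63 (SE 0.14, edgeR adjusted p = 0.0446).

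The predicted gene Gm4788, which is outside that list, had medians of 302, 356, 326 and 259 CPM in 129S1/SvImJ chow, 129S1/SvImJ high-fat, C57BL/6J chow and C57BL/6J high-fat (interaction 0.67, edgeR adjusted p = 0.0431). Its diet groups overlapped in both strains. The complement gene C9 averaged 464 and 810 CPM in 129S1/SvImJ and 570 and 512 CPM in C57BL/6J (interaction 0.96, edgeR adjusted p = 0.0797).

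No acute-phase gene of 36 was called in edgeR, with 12 higher and 1 lower by unadjusted p under 0.05 (median 0.46), beside the same shares of all genes. The fibrinogen chain genes Fga, Fgb and Fgg fell in C57BL/6J by 0.63, 0.58 and 0.54, and their diet effects in 129S1/SvImJ were −0.08, 0.03 and 0.00. Their interactions of 0.55, 0.61 and 0.54 had edgeR adjusted p of 0.1476, 0.1245 and 0.1270. No urea cycle or amino acid gene of 46 was called, with 13 higher and 2 lower by unadjusted p under 0.05, beside 7.05% and 7.24% of all genes.

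Gm33543, a predicted protein-coding gene at chr10:95823973-95842930 on the minus strand, had the smallest p. In 129S1/SvImJ it was at 8.66, 9.003, 9.44, 10.9 and 16.5 CPM on chow and at 27.2 to 36.6 CPM (median 33.0) on high-fat diet. In C57BL/6J it was at 11.7 to 25.5 CPM (median 16.5) on chow and 7.71 to 18.6 CPM (median 10.1) on high-fat diet. The 129S1/SvImJ high-fat libraries stood above all others. The diet raised it by 1.59 in 129S1/SvImJ and lowered it by 0.63 in C57BL/6J, an interaction of 2.22 (SE 0.29, edgeR adjusted p = 0.000979).

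Nnmt, which encodes nicotinamide N-methyltransferase, had the largest called interaction, 3.26 (SE 0.65, edgeR adjusted p = 0.0431). In 129S1/SvImJ it was at 1.61, 2.83, 4.72, 2.70 and 4.59 CPM on chow and 9.19 to 31.1 CPM (median 24.1) on high-fat diet, without overlap. In C57BL/6J it ranged from 38.1 to 126 CPM (median 52.1) on chow and from 9.92 to 82.4 CPM (median 45.2) on high-fat diet. The diet effect was 2.77 in 129S1/SvImJ and −0.48 (edgeR adjusted p = 0.408) in C57BL/6J. Tifa, an adaptor of NF-kB signalling, likewise rose in 129S1/SvImJ, from a median of 3.34 to 7.79 CPM, beside 17.2 and 15.9 CPM in C57BL/6J (interaction 1.46, edgeR adjusted p = 0.0431). The pseudogene Mup-ps13, 1 of many near-identical major urinary protein copies, had medians of 2.72 and 7.64 CPM in 129S1/SvImJ and 9.55 and 7.11 CPM in C57BL/6J (interaction 1.89, edgeR adjusted p = 0.0082).

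**Figure D4:**
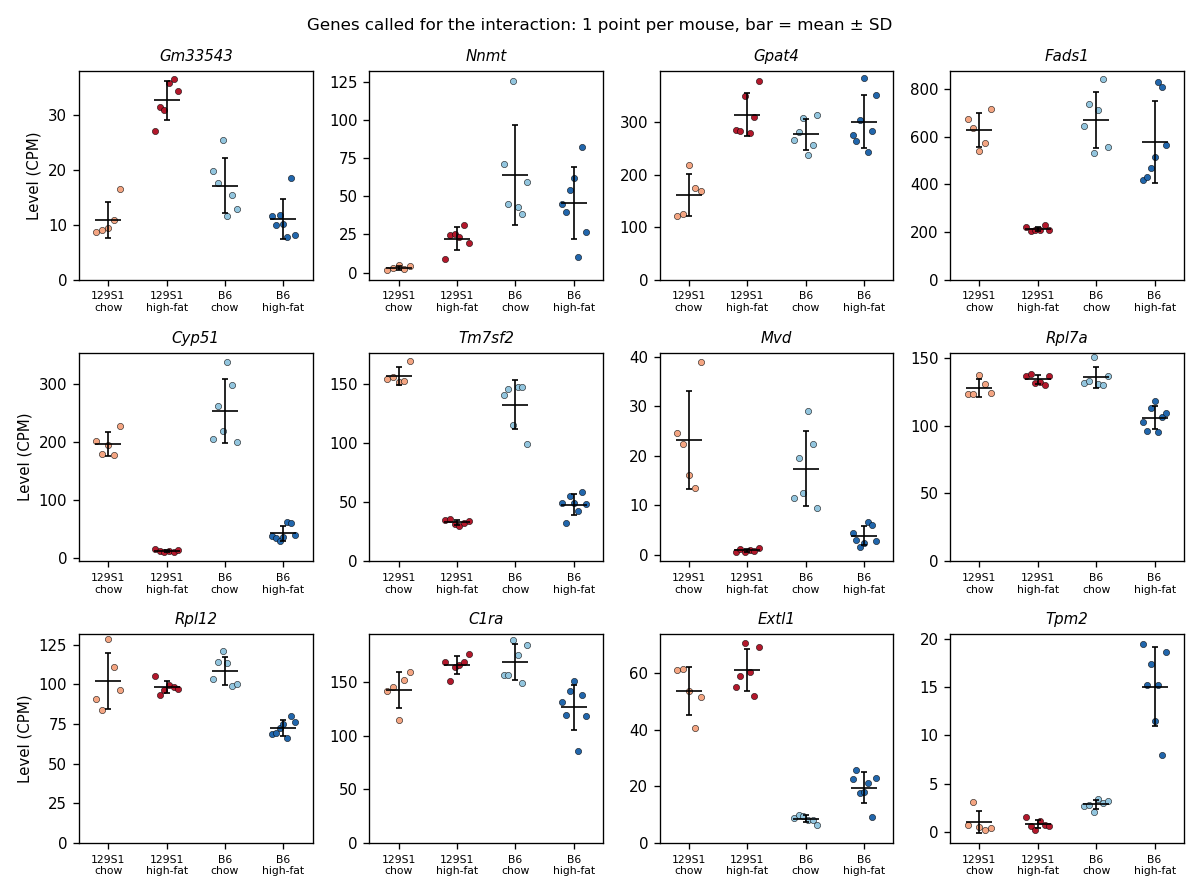
Levels in CPM of 12 genes called for the interaction, with 1 point per mouse and bars for the mean ± SD of 5, 6, 6 and 7 mice. Gm33543 is highest in 129S1/SvImJ on high-fat diet (27.2 to 36.6 CPM), Fads1 lowest there (205 to 227 CPM), Rpl12 lowest in C57BL/6J on high-fat diet (65.9 to 80.02 CPM), and Tpm2 highest there (7.94 to 19.5 CPM).

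Several genes called lower rose in C57BL/6J only. Tpm2, which encodes beta-tropomyosin, was at 0.74, 3.04, 0.54, 0.22 and 0.39 CPM on chow and 0.18 to 1.49 CPM on high-fat diet in 129S1/SvImJ. In C57BL/6J it was at 2.02 to 3.39 CPM on chow and 7.94 to 19.5 CPM on high-fat diet, without overlap. Its interaction was −2.76 (SE 0.61, edgeR adjusted p = 0.049), and without replicate 2 of 129S1/SvImJ on chow, the library at 3.04 CPM, it was −1.65 (adjusted p = 0.277). Extl1, a glycosyltransferase of heparan sulfate chains, had medians of 53.6 and 59.7 CPM in 129S1/SvImJ and 8.49 and 21.1 CPM in C57BL/6J (interaction −1.04, edgeR adjusted p = 0.049). Stap1, a signalling adaptor, had medians of 14.7 and 13.7 CPM in 129S1/SvImJ and 3.32 and 9.82 CPM in C57BL/6J (interaction −1.48, edgeR adjusted p = 0.0431). For both genes C57BL/6J on chow was the lowest group.

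Other called genes had lower levels in 129S1/SvImJ on high-fat diet. Srgap3, a GTPase-activating protein gene, fell from a median of 7.79 to 0.80 CPM in 129S1/SvImJ and from 4.81 to 1.90 CPM in C57BL/6J (interaction −1.67, edgeR adjusted p = 0.0431). The alpha-tubulin gene Tuba1c fell from 16.8 to 8.38 CPM in 129S1/SvImJ, beside 14.3 and 12.5 CPM in C57BL/6J (interaction −1.09, edgeR adjusted p = 0.0187). The glutathione transferase gene Gstm6 had medians of 74.9 and 32.7 CPM in 129S1/SvImJ and 73.8 and 50.9 CPM in C57BL/6J (interaction −0.80, edgeR adjusted p = 0.0431). Both Tuba1c and Gstm6 have close paralogs. Rassf4, a Ras-association domain gene, differed in another way, since it rose in C57BL/6J, from 13.7 to 24.2 CPM, beside 22.4 and 18.7 CPM in 129S1/SvImJ (interaction −1.13, edgeR adjusted p = 0.0431). Ptpn23, a phosphatase-family gene of endosomal sorting, fell by 0.33 in 129S1/SvImJ and rose by 0.25 in C57BL/6J, with overlap in both strains (interaction −0.58, edgeR adjusted p = 0.0196).

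Fh1, the fumarate hydratase of the citric acid cycle, had medians of 173 and 197 CPM in 129S1/SvImJ and 183 and 144 CPM in C57BL/6J (interaction 0.68, edgeR adjusted p = 0.0344). Crybg3 had medians of 9.78 and 10.7 CPM in 129S1/SvImJ and 32.2 and 19.2 CPM in C57BL/6J (interaction 0.82, edgeR adjusted p = 0.0196). The diet groups of both genes were apart in C57BL/6J only. The uncharacterized gene 4930523C07Rik had medians of 15.0 and 24.3 CPM in 129S1/SvImJ, without overlap, and 29.3 and 26.6 CPM in C57BL/6J (interaction 0.73, edgeR adjusted p = 0.0431). Over the 43 called genes, the diet groups stood apart in 129S1/SvImJ for 16 genes, in C57BL/6J for 22, in both for 4 and in neither for 9. Over all 14533 genes tested the shares were 7.73%, 3.89%, 1.05% and 89.4%. The same values chose these genes, so the counts are a description.

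Tcf7l2, the factor named in the study's title, had medians of 63.4 and 53.7 CPM in 129S1/SvImJ and 56.2 and 48.4 CPM in C57BL/6J, with overlap of the diet groups in both strains. Its interaction was 0.05 (SE 0.12, edgeR adjusted p = 0.91). Axin2, a feedback target of Wnt signalling, was at 9.55 to 31.2 CPM on chow and 7.84 to 13.5 CPM on high-fat diet in 129S1/SvImJ, beside medians of 16.6 and 17.3 CPM in C57BL/6J. The interaction of −1.05 (SE 0.36) had an edgeR adjusted p of 0.176. None of the 30 genes of the Wnt and TCF list was called, and 1 was higher and 1 lower by unadjusted p under 0.05, beside 7.05% and 7.24% of all genes. The bile acid synthesis genes Cyp7a1 (0.04, SE 0.54) and Cyp8b1 (−0.04, SE 0.20) had edgeR adjusted p of 0.987 and 0.955, and both changed sign in other fits. The estrogen sulfotransferase gene Sult1e1 had medians of 0.523 and 13.1 CPM in 129S1/SvImJ and 0.354 and 1.31 CPM in C57BL/6J (interaction 1.74, SE 1.28, edgeR adjusted p = 0.575). The hormone gene Fgf21 (−1.75, SE 0.74), the mitochondrial transhydrogenase gene Nnt (0.26, SE 0.31) and Rn7sk (−0.14, SE 0.41) had edgeR adjusted p of 0.286, 0.757 and 0.924.

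The lists ran from a median interaction of −1.20 in adipocyte markers to 0.75 in the major urinary proteins. Only 9 of the 16 adipocyte markers passed the low-count filter. Cidea averaged 0 and 0.01 CPM in 129S1/SvImJ and 0.07 and 17.8 CPM in C57BL/6J, chow before high-fat. It passed the filter only through the last of these groups, so the adipocyte median cannot serve as support for a direction. Of 32 genes of stellate cells and fibrosis none was called in edgeR, with 2 higher and 11 lower by unadjusted p under 0.05, beside 7.05% and 7.24% of all genes. The median diet effect of that list was 0.45 in C57BL/6J and −0.01 in 129S1/SvImJ. Its summed level ran from 4071 to 5132 CPM and from 4525 to 4846 CPM in 129S1/SvImJ, and from 4157 to 4788 CPM and from 4149 to 4937 CPM in C57BL/6J, chow before high-fat. The Kupffer cell list had no call in 18 genes, with 3 higher by unadjusted p (median 0.44). Its summed level was 480 to 739 CPM and 478 to 783 CPM in 129S1/SvImJ, and 634 to 923 CPM and 645 to 1108 CPM in C57BL/6J. The part of cell mixture in the interactions was not tested.

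**Figure D5:**
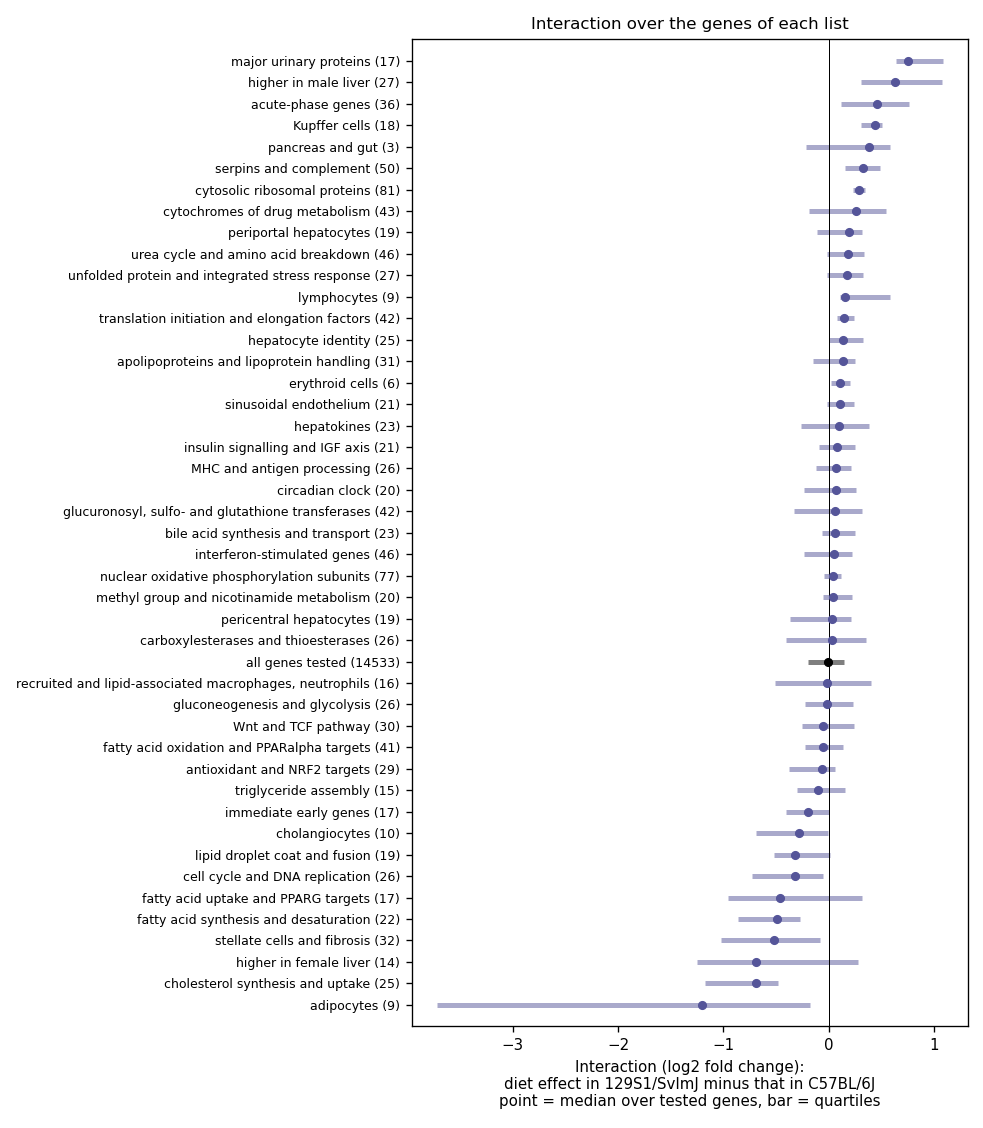
Median (point) and quartiles (bar) of the interaction over the tested genes of each list, on a log2 scale, with the number of genes in brackets. All 14533 genes (black) have a median of −0.01, the cytosolic ribosomal proteins of 0.29 and the cholesterol list of −0.69.

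The count of 43 depended on single libraries. Among the 43 genes, Gm33543, Fads1, Mup-ps13, Cyp51 and Crybg3 were called in all 24 fits without 1 library. The other 38 lost the call in at least 1 of them. The count was lower by more than 1.5 times in 17 of these fits and higher in 4, from 5 without replicate 1 and 6 without replicate 2 of 129S1/SvImJ on chow to 170 without replicate 4 of C57BL/6J on high-fat diet. Within the libraries of low and of high 7SK separately, the unadjusted p was under 0.05 for 37 and 41 of the 43 genes, which were called from these same libraries. Without the library with fat-cell transcripts 23 genes were called, 21 of them among the 43.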

How the data were processed

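Liver RNA from 24 mice was depleted of ribosomal RNA and made into directional libraries, per the labels' protocols. The authors deposited a table of read counts per gene, identical to their 24 per-library count files, and a table of variance-stabilized values on a log2-like scale. Per the submitters' processing notes, STAR 2.5.4b, Trimmomatic 0.36, DESeq2 1.26.0 and Bowtie2 2.2.3 were used with mm10, in roles that are not given. The counting strand is not given in the sources used here. Of 53677 gene identifiers, 53582 matched GENCODE M21 by identifier without version. The 95 others held 0.00747% of the counts.

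Counts were tested with edgeR 4.0.16 (R 4.3.3) in a quasi-likelihood model with robust dispersion, 1 mean per group, TMM scaling, filterByExpr (14533 genes kept) and a prior count of 0.125 for fold changes, and adjusted by Benjamini-Hochberg. The model was tested on simulated data. CPM used TMM-scaled totals. Alternatives were other scalings and filters, DESeq2 1.42.0, limma 3.58.1 (voom, linear CPM, and the authors' deposited log2-like variance-stabilized values), leaving out each library, the replicate number as a block, and libraries split by 7SK level.

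Reads of 129S1/SvImJ and C57BL/6J were assigned with 1 mm10 reference. A loss of reads by the same factor on both diets would cancel in the interaction, while reads shared with near-identical copies need not. The part of either in the interactions was not tested. Named genes were the 10 called genes per direction with the largest interaction and at least 5 CPM in a group, up to 4 called genes of a list with several, genes called for diet with opposite signs, and 16 fixed genes. Some genes that met this rule are not reported here. Other list members and called genes were named after their values were seen. The genes, lists and tests were chosen with earlier results of these data known. The labels name each mouse separately, and replicate numbers mark different mice. Within each group, mice share 1 of 2 identifier numbers whose meaning the labels do not give. A fit with that number nested in group was an alternative.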

Additional observations from a re-analysis of the deposited data

Results flagged for a closer look

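Among 152 values of a gene in a group, 13 had a library far from the rest by Dixon's criterion. Chance gives about 1 in 20 groups. In 129S1/SvImJ on chow these were Gm33543 at 16.5 CPM and Tm7sf2 at 170 CPM in replicate 5, Tpm2 at 3.04 CPM in replicate 2 and Cfd at 3.21 CPM in replicate 1. In 129S1/SvImJ on high-fat diet they were Tuba1c at 10.8 CPM in replicate 2, and Cidec at 3.69 CPM and Fgf21 at 3.96 CPM in replicate 3. In C57BL/6J on chow all 4 were in replicate 3, with Rpl7a at 151 CPM, Tifa at 26.9 CPM, Gstm6 at 47.2 CPM and Sult1e1 at 1.31 CPM. In C57BL/6J on high-fat diet they were Gm33543 at 18.6 CPM in replicate 6 and Sult1e1 at 10.9 CPM in replicate 1.

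The diet effect differed between the strains by the test of the interaction for 23 named genes. Of these, 11 were higher in 129S1/SvImJ: Nnmt (3.26), Gm33543 (2.22), Mup-ps13 (1.89), Tifa (1.46), Gpat4 (0.84), Crybg3 (0.82), 4930523C07Rik (0.73), Fh1 (0.68), Gm4788 (0.67), Rps7 (0.47) and Rpl7a (0.43), in log2 units. The other 12 were lower: Tpm2 (-2.76), Mvd (-2.52), Srgap3 (-1.67), Stap1 (-1.48), Cyp51 (-1.38), Fads1 (-1.34), Rassf4 (-1.13), Tuba1c (-1.09), Extl1 (-1.04), Gstm6 (-0.80), Tm7sf2 (-0.78) and Ptpn23 (-0.58).

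Fat-cell transcripts, which were not among the genes tested and chose the library left out in 1 alternative fit, were above every chow library in replicate 5 of C57BL/6J on high-fat diet. Adipoq was at 1.23 CPM, Lep at 3.28 CPM and Plin1 at 1.56 CPM, against highest chow values of 0.866, 0.124 and 0.371 CPM.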

How the results depend on the processing

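The number of genes called for the interaction, 43 (25 higher, 18 lower), moved with the setting. It was 75 (17 and 58) under total counts, 297 (165 and 132) in DESeq2, 19 (13 and 6) in limma-voom and 168 (114 and 54) on linear CPM. With Rn7sk as a covariate it was 121 (75 and 46), and with low Rn7sk libraries only 1 (1 and 0) and high Rn7sk libraries only 0 (0 and 0), where fewer libraries were tested and 864 and 1335 genes had an unadjusted p under 0.05. Without the library with fat-cell transcripts it was 23 (15 and 8). Without replicates 5 and 6 of the high-fat C57BL/6J group together, chosen after seeing the data, it was 81 (46 and 35). Fits without 1 library gave 5 to 170 genes, 3 to 96 higher and 2 to 74 lower. The count stayed within 1.5 times only without replicate 3 of 129S1/SvImJ on chow (40), or replicate 1 (31) or 4 (40) of chow-fed C57BL/6J. The shared count with the 43 was 43 in DESeq2, 19 in limma-voom and 30 on linear CPM. The cause of these shifts was not tested.

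Ribosomal genes called higher numbered 7, 4 under total counts, 21 with the Rn7sk covariate, 0 within either Rn7sk level, 3 without the fat-cell library and 0 to 15 without 1 library. Cholesterol genes called lower numbered 3, 0 within either Rn7sk level and 1 to 8 without 1 library. At an adjusted p under 0.01 throughout, called genes with diet called in 129S1/SvImJ only numbered 3, and those in C57BL/6J only, in both the same way and in both oppositely 0 each.

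Signs reversed for Cyp51 on linear CPM (26.7 CPM), for Tcf7l2 under total counts (-0.0418) and low Rn7sk (-0.22), and for Cyp8b1 on linear CPM (25.1 CPM) and high Rn7sk (0.0734). Cyp7a1 reversed under total counts (-0.0423), low Rn7sk (-0.63), a prior count of 2 (-0.0278), without the fat-cell library (-0.14) and without replicates 5 and 6 (-0.17). Without 1 library, the ranges were -0.15 to 0.23 for Cyp7a1, -0.142 to 0.0687 for Cyp8b1, -0.29 to 0.15 for Rn7sk and -0.0184 to 0.0995 for Tcf7l2.

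With the replicate number as a block, 17 genes were called (10 higher and 7 lower), 16 of them among the 43. Same-numbered libraries of different groups had deviations correlated from -0.21 to 0.281 (median 0.0597, 33 pairs). Other pairs across groups had a median of -0.00918, and 9 of 24 libraries correlated best with their own number. The main fit had no block because replicate numbers mark different mice. Whether same-numbered libraries also shared their handling was not tested. With the mouse identifier number nested in group, 39 genes were called, 27 of them among the 43. Depth limited rare transcripts such as Cfd in 129S1/SvImJ, where most libraries held under 1 CPM.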
